A study of Mus musculus with 12 samples.

Results

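The Pax genes encode transcription factors that share a paired DNA-binding domain. Of the 23420 gene symbols counted in each of 2 mouse lines, 8 members were chosen by symbol (Pax1, Pax2, Pax3, Pax5, Pax6, Pax7, Pax8 and Pax9), all 8 were present in both tables, and all 8 passed the filter on low counts in every comparison. The ninth mammalian member, Pax4, a regulator of pancreatic islet development, was not among the chosen members and held 0 to 2 counts per library. RNA with poly(A) tails was sequenced from homogenized whole embryos at embryonic day 12.5, so the tissue is a mixture of all embryonic cell types. In the Carm1 line (strain label C57BL/6), 3 Carm1 null embryos homozygous for the Carm1tm1Mtb allele were compared with 3 wild-type embryos. In the Pax3 line (strain label mixed), 3 Pax3 null embryos homozygous for Pax3Sp2h, the splotch allele, were compared with 3 wild-type embryos. All embryos came from matings between heterozygotes, both alleles are carried in every tissue, and the 2 lines share no control. CARM1 is an arginine methyltransferase that acts as a transcriptional coactivator.

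Pax factors fall into subgroups that arose by gene duplication, and members of a subgroup often act in the same tissues. Pax1 and Pax9 pattern the sclerotome, which forms the vertebrae, and the pharyngeal pouches. Pax2, Pax5 and Pax8 act at the midbrain-hindbrain boundary, with Pax2 and Pax8 also needed for the kidney and Pax8 for the thyroid. Pax3 and Pax7 mark the dorsal neural tube, neural crest and muscle progenitors. Pax6, which is in a subgroup with Pax4, directs development of the eye, the forebrain and the ventral spinal cord.

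Because members of a subgroup resemble each other, the coding sequences were compared to see whether a read could have been counted on the wrong member. For the 3 pairs with the longest identical runs, windows of 80 or 81 nt centred on that run, from the GENCODE M21 transcripts of build GRCm38, are shown 5′ to 3′ with identical bases in capitals and differing bases in lower case. They show how far the paralogs can be told apart by sequence.
Pax3: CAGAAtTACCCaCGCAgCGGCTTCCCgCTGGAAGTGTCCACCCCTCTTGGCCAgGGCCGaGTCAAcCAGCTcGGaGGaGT
Pax7: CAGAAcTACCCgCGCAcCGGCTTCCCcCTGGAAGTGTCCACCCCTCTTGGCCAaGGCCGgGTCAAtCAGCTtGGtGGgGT
Pax1: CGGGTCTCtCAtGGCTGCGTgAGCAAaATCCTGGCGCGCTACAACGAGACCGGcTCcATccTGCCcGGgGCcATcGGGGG
Pax9: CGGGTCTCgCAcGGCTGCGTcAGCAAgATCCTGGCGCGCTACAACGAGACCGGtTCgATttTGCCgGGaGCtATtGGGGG
Pax2: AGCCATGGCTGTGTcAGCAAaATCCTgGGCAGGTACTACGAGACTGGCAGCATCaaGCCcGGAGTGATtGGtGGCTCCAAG
Pax8: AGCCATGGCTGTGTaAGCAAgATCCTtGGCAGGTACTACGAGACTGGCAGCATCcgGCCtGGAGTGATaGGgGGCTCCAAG
The longest run of identical bases was 26 nt for Pax3 and Pax7, 26 nt for Pax1 and Pax9, and 27 nt for Pax2 and Pax8. A 150-nt stretch, the length of 1 read, held at least 20 differences between Pax3 and Pax7, 25 between Pax1 and Pax9 and 18 between Pax2 and Pax8. By that measure Pax2 and Pax5, with 22, and Pax5 and Pax8, with 23, were closer than Pax1 and Pax9, although their longest identical runs were 17 nt. How multi-mapping reads were counted was not stated, but no stretch of read length was identical between members in these coding sequences.

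Library sizes ranged from 17183344 to 23518692 counts, and members other than Pax5 held 148 to 1296 counts per library. Pax5 held 38 to 106 counts, the fewest of the family. The targeted gene Carm1 had 1299, 1237 and 1293 counts in the Carm1 null libraries and 2542, 3384 and 2808 in their wild types, a log2 fold change of -0.998 (SE 0.050, adjusted P = 1.2e-15 by the edgeR quasi-likelihood test). Libraries with at least 100 counts on Y-linked genes were Carm1 wild-type replicate 3, Pax3 wild-type replicates 2 and 3, and Pax3 null replicate 3. The labels do not say whether embryos shared a litter, so P values measure the spread between these embryos. In whole embryos, fewer cells of a type and less RNA per cell cannot be told apart.

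In Carm1 null embryos Pax3, Pax6 and Pax7 rose 1.25- to 1.30-fold and Pax1 fell. Of the 8 members, 4 passed an adjusted P of 0.05, 3 of them higher and 1 lower, where 13.3% of all 15811 genes tested passed, 5.49% higher and 7.83% lower. In Pax3 null embryos only Pax3 itself passed the threshold, where 24.5% of 15724 genes passed, 14.0% higher and 10.5% lower. The null and wild-type groups did not overlap for 5 of 8 members in the Carm1 line, against 30.0% of all genes, and for 3 of 8 in the Pax3 line, against 39.6% of all genes. The median log2 fold change of the 8 members was 0.19 in the Carm1 line and 0.058 in the Pax3 line, beside medians of 0.0014 and -0.0026 over all genes tested. Calls rest on the fit across all genes, since an exact permutation test of 3 libraries against 3 allows no P below 0.1. Markers of other tissues moved with the groups too, although the marker lists were not run under the alternative settings. Of 6 hepatocyte markers, 5 fell in Carm1 null embryos, with summed levels of 709 to 822 CPM against 1332 to 1613 CPM, and 1 fell in Pax3 null embryos, with 770 to 855 CPM against 932 to 1140 CPM. Of 6 cardiomyocyte markers, 4 fell in Carm1 null embryos (241 to 261 CPM against 304 to 351 CPM) and 4 rose in Pax3 null embryos (264 to 340 CPM against 218 to 256 CPM). Of 6 erythroid markers, 1 rose and 3 fell in Carm1 null embryos and none passed in Pax3 null embryos by edgeR, with summed levels that overlapped in both lines. The part of these tissues in the values of the members was not tested.

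**Figure D1:**
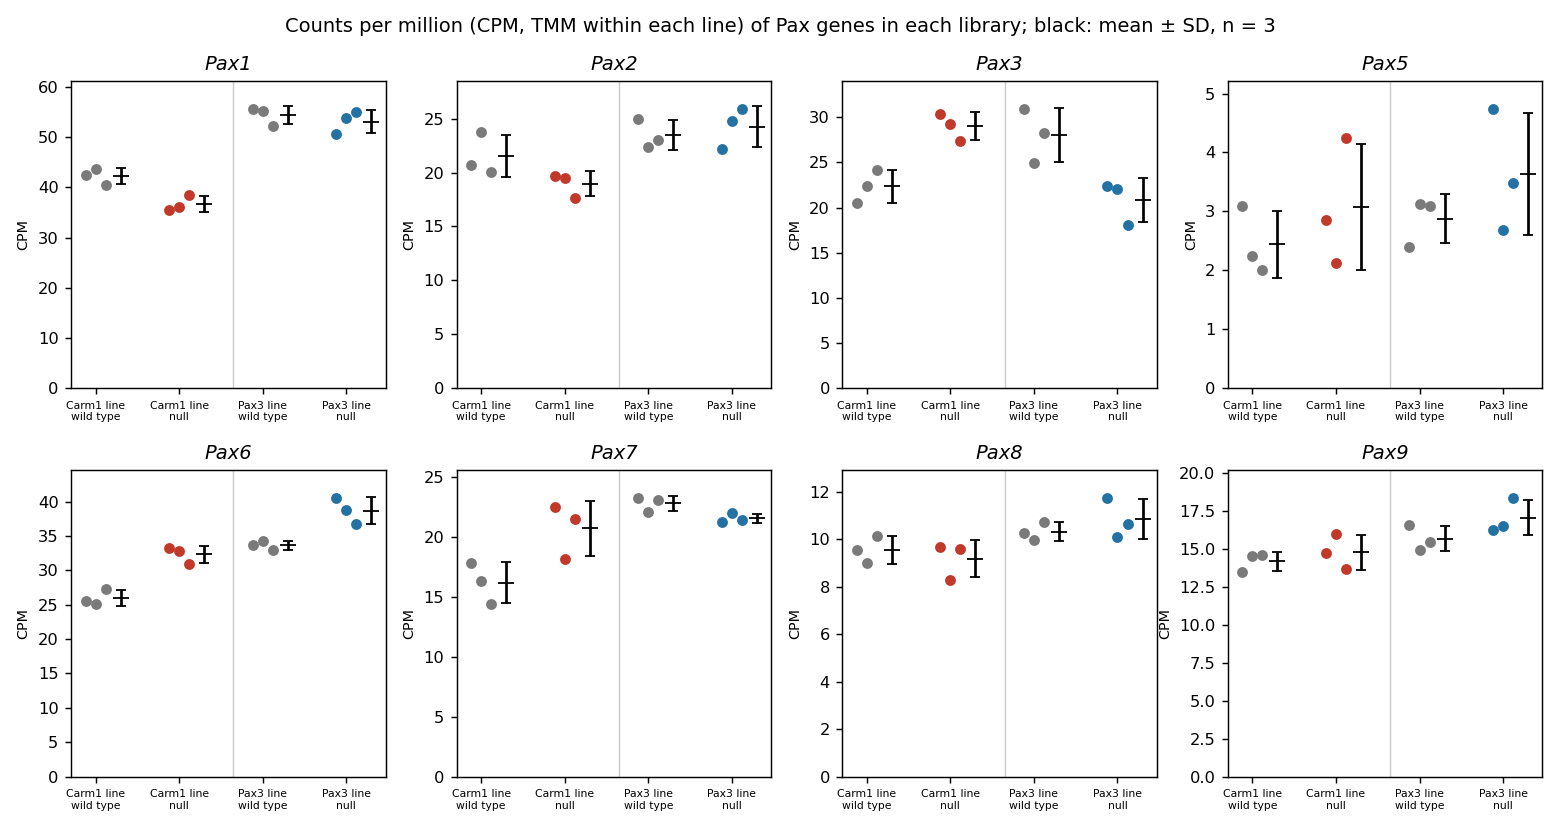
CPM, counts scaled to the library size by TMM within each line, of each Pax gene in each library (points) of the 4 groups, with the group mean and SD in black (n = 3); each vertical axis starts at 0. Pax3, Pax6 and Pax7 lie higher in all Carm1 null libraries than in their wild types, and Pax3 lies lower in all Pax3 null libraries.

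Pax3, a regulator of neural crest and of limb muscle progenitors, is encoded on the reverse strand at chr1:78101267-78197134. Its level, in counts scaled to the library size (CPM), was 30.4, 29.3 and 27.4 CPM in Carm1 null embryos, against 20.5, 22.4 and 24.2 CPM in wild-type embryos. All 3 null libraries lay above all 3 wild types. The log2 fold change was 0.37 (SE 0.078, 95% confidence interval 0.22 to 0.53, n = 3 per group, adjusted P = 0.0010 by edgeR), a 1.30-fold rise. It was 22.4, 22.0 and 18.1 CPM in Pax3 null embryos and 30.9, 25.0 and 28.3 CPM in wild types. Here all 3 null libraries lay below all 3 wild types. The transcript fell to 0.741 of wild type, with a log2 fold change of -0.43 (SE 0.095, interval -0.63 to -0.24, adjusted P = 0.0014 by edgeR). Counts run over all exons of the gene, so they do not show whether the transcript carries the splotch lesion. Pax3 mRNA was still present in the embryos labelled Pax3 null.

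Pax7, which marks the dorsal neural tube and muscle progenitors, lies on the reverse strand at chr4:139737062-139833528. It was measured at 22.5, 18.1 and 21.5 CPM in Carm1 null embryos and at 17.8, 16.3 and 14.4 CPM in wild types. The groups did not overlap, but the lowest null library was close to the highest wild type. The log2 fold change was 0.36 (SE 0.095, interval 0.17 to 0.55, adjusted P = 0.0088 by edgeR). The call was lost without Carm1 null replicate 1 (log2 fold change 0.30, adjusted P = 0.093) and without Carm1 null replicate 3 (0.33, adjusted P = 0.054). It was also lost when a term marked libraries with at least 100 Y-linked counts (0.28, adjusted P = 0.052). In the Carm1 line only wild-type replicate 3 was so marked, so the term stands for that library alone. Pax7 in the Pax3 line was at 21.2, 22.0 and 21.4 CPM in null embryos and 23.3, 22.1 and 23.1 CPM in wild types. The null values lay just below the wild-type values without passing the test (log2 fold change -0.084, interval -0.25 to 0.084, adjusted P = 0.50 by edgeR).

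The ratio of Pax3 to Pax7 counts within a library does not depend on library size. It was 1.35, 1.61 and 1.27 in Carm1 null embryos and 1.15, 1.37 and 1.68 in their wild types, overlapping ranges with means of 1.41 ± 0.18 and 1.40 ± 0.27 (SD, n = 3, exact two-sided permutation P = 1). The Pax3 line gave ratios of 1.05, 1.0 and 0.845 in null embryos and 1.33, 1.13 and 1.23 in wild types, with means of 0.967 ± 0.109 and 1.23 ± 0.10 (SD, n = 3). These groups did not overlap (exact permutation P = 0.1, the smallest value the design allows).

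Pax1, a sclerotome and thymus regulator, lies on the forward strand at chr2:147361925-147393295. It was at 35.5, 36.0 and 38.4 CPM in Carm1 null embryos, against 42.4, 43.8 and 40.6 CPM in wild types. All null values were below all wild-type values. The log2 fold change was -0.21 (SE 0.063, interval -0.33 to -0.079, adjusted P = 0.024 by edgeR). DESeq2 did not call it (adjusted P = 0.087), nor did edgeR without Carm1 null replicate 1 (0.12), without Carm1 null replicate 2 (0.10) or without Carm1 wild-type replicate 2 (0.14). Pax1 in the Pax3 line was at 50.6, 53.8 and 55.0 CPM in null embryos and 55.7, 55.3 and 52.4 CPM in wild types. The groups overlapped, with a log2 fold change of -0.034 (interval -0.16 to 0.096, adjusted P = 0.74 by edgeR).

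Pax9, which is needed for teeth, palate and pharyngeal pouches, lies on the forward strand at chr12:56691767-56712822. It was at 14.7, 16.0 and 13.7 CPM in Carm1 null embryos and 13.5, 14.5 and 14.6 CPM in wild types. Values in the Pax3 line were 16.2, 16.5 and 18.4 CPM in null embryos and 16.6, 14.9 and 15.5 CPM in wild types. The groups overlapped in both lines, with log2 fold changes of 0.057 (interval -0.14 to 0.25) and 0.12 (interval -0.069 to 0.31). The ratio of Pax1 to Pax9 counts was 2.49 ± 0.29 in Carm1 null embryos and 2.98 ± 0.19 in wild types (SD, n = 3, exact permutation P = 0.2), with overlapping ranges. Within the Pax3 line it was 3.12 ± 0.13 in null embryos and 3.48 ± 0.19 in wild types, without overlap (SD, n = 3, exact permutation P = 0.1).

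Pax6, the regulator of eye, forebrain and ventral spinal cord, lies on the forward strand at chr2:105668900-105697364. It was at 33.3, 32.8 and 31.0 CPM in Carm1 null embryos, against 25.5, 25.1 and 27.3 CPM in wild types. The lowest null library was above the highest wild type. The log2 fold change was 0.32 (SE 0.071, interval 0.17 to 0.46, adjusted P = 0.0020 by edgeR). Pax6 was at 40.6, 38.7 and 36.7 CPM in Pax3 null embryos, against 33.7, 34.3 and 33.0 CPM in wild types. These groups did not overlap either. The log2 fold change of 0.20 (SE 0.076, interval 0.045 to 0.36, adjusted P = 0.053 by edgeR) missed the threshold, and it passed under 5 alternative settings, with an adjusted P of 0.0095 after offsets for transcript length and GC content. Among 5 tested lens markers, 4 rose in Pax3 null embryos (Cryaa by 0.45 and Crybb3 by 0.85 on the log2 scale), where 14.0% of all genes rose. The summed level of lens markers was 58.7 to 76.4 CPM against 45.0 to 54.0 CPM in wild types. In Carm1 null embryos 1 of the 5 fell and none rose, where 7.83% of all genes fell and 5.49% rose. The marker that fell was Cryba4, from 2.04 to 1.16 CPM (adjusted P = 0.0498 by edgeR). The sum in that line was 22.2 to 40.8 CPM against 44.3 to 47.0 CPM. The lens marker list was not run under the alternatives, and the part of lens tissue in the Pax6 values was not tested.

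Pax2, a regulator of kidney, inner ear and midbrain-hindbrain boundary, lies on the forward strand at chr19:44756045-44837871. It was at 19.7, 19.5 and 17.6 CPM in Carm1 null embryos, against 20.8, 23.8 and 20.1 CPM in wild types. The groups did not overlap by a narrow margin, and the change did not pass the test (log2 fold change -0.19, interval -0.36 to -0.012, adjusted P = 0.16 by edgeR). Pax2 in the Pax3 line was at 22.2, 24.8 and 25.9 CPM in null embryos and 25.0, 22.4 and 23.0 CPM in wild types, with overlap and a log2 fold change of 0.048 (interval -0.13 to 0.22).

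Pax8, which acts in kidney and thyroid, lies on the reverse strand at chr2:24420560-24475599. It was at 9.66, 8.29 and 9.60 CPM in Carm1 null embryos and 9.55, 8.98 and 10.1 CPM in wild types. Values in the Pax3 line were 11.8, 10.1 and 10.6 CPM in null embryos and 10.2, 9.96 and 10.7 CPM in wild types. Both pairs of groups overlapped, with log2 fold changes of -0.056 (interval -0.30 to 0.18) and 0.069 (interval -0.16 to 0.29). The ratio of Pax2 to Pax8 counts also overlapped in both lines, at 2.08 ± 0.26 against 2.27 ± 0.34 in the Carm1 line (exact permutation P = 0.6) and 2.26 ± 0.32 against 2.28 ± 0.15 in the Pax3 line (SD, n = 3, exact permutation P = 0.9).

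Pax5, a midbrain-hindbrain and B-cell regulator, lies on the reverse strand at chr4:44524757-44710487. It was at 2.85, 2.13 and 4.24 CPM in Carm1 null embryos and 3.08, 2.24 and 2.0 CPM in wild types. In the Pax3 line it was at 4.74, 2.69 and 3.48 CPM in null embryos and 2.39, 3.13 and 3.09 CPM in wild types. Its groups overlapped in both lines. The log2 fold changes of 0.35 (interval -0.15 to 0.84) and 0.34 (interval -0.083 to 0.77) had the widest intervals of the family, which held both 0 and changes of the size seen for Pax3, Pax6 and Pax7 in the Carm1 line. Counting error and the spread between embryos were not separated.

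**Figure D2:**
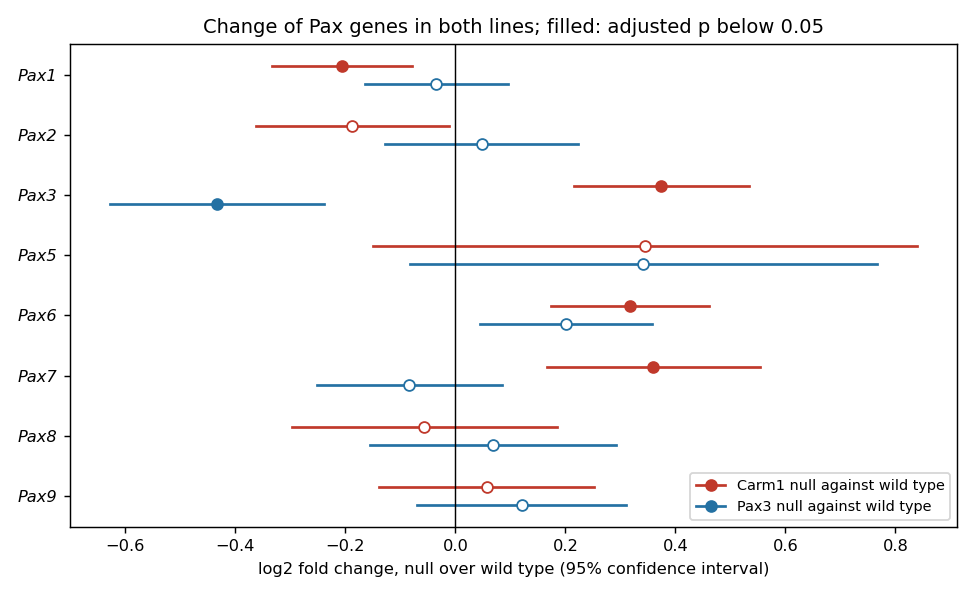
Log2 fold change of each Pax gene, null over wild type, with 95% confidence intervals from edgeR, in the Carm1 line (red) and the Pax3 line (blue); filled points passed an adjusted P of 0.05. Pax3 is the only member called in both lines, with 0.37 in the Carm1 line and -0.43 in the Pax3 line.

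Whether a member responded differently in the 2 lines was tested as the Carm1 null effect minus the Pax3 null effect in one fit of all 12 libraries. For 2 of 8 members the effects differed, both more positive in the Carm1 line, where 19.1% of 16292 genes differed and 8.65% were more positive. The difference for Pax3 was 0.82 (SE 0.13, adjusted P = 2.9e-05 by edgeR) and that for Pax7 was 0.45 (SE 0.13, adjusted P = 0.013). Without Carm1 null replicate 1 the Pax7 difference was 0.39 (adjusted P = 0.050), just short of the threshold. For Pax6 the difference was 0.13 (interval -0.074 to 0.33), and for Pax1 it was -0.16 (interval -0.33 to 0.011). The intervals of Pax2 (-0.48 to 0.035), Pax5 (-0.66 to 0.69), Pax8 (-0.43 to 0.20) and Pax9 (-0.33 to 0.22) also included 0.

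Wild-type embryos of the 2 lines differed in 4 of 8 members, all higher in the Pax3 line, where 39.4% of 15882 genes differed and 18.7% were higher. The log2 differences were 0.47 for Pax7 (adjusted P = 0.00028 by edgeR), 0.34 for Pax1 (adjusted P = 0.00035), 0.34 for Pax6 (adjusted P = 0.0015) and 0.30 for Pax3 (adjusted P = 0.013). The Pax3 difference did not pass without Carm1 wild-type replicate 1 (adjusted P = 0.062) or without Pax3 wild-type replicate 1 (adjusted P = 0.067). Differences were 0.094 for Pax2, 0.22 for Pax5, 0.085 for Pax8 and 0.11 for Pax9, none of which passed. The wild-type groups did not overlap for the 4 called members, against 49.4% of all genes. Line, strain background and colony cannot be told apart.

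To compare levels between genes, CPM scaled over all 12 libraries was divided by the length of the longest coding transcript. Pax1 was highest in all 4 groups, from 14.1 ± 0.6 CPM per kb in Carm1 null embryos to 20.4 ± 0.7 in wild types of the Pax3 line (SD, n = 3), and Pax5 was lowest, from 0.309 ± 0.072 to 0.446 ± 0.127. In wild types of the Carm1 line the order below Pax1 was Pax6 (5.95 ± 0.26), Pax3 (5.87 ± 0.49), Pax2 (5.01 ± 0.46), Pax8 (3.79 ± 0.23), Pax9 (3.40 ± 0.15) and Pax7 (2.80 ± 0.30). Pax6 and Pax3 overlapped there, as did Pax3 and Pax2. In wild types of the Pax3 line it was Pax6 (7.52 ± 0.14), Pax3 (7.19 ± 0.79), Pax2 (5.33 ± 0.33), Pax8 (3.98 ± 0.15), Pax7 (3.85 ± 0.12) and Pax9 (3.66 ± 0.21). Pax6 and Pax3 overlapped again, and so did Pax8 with Pax7 and Pax7 with Pax9. The null groups had Pax3 above Pax6 with overlap in the Carm1 line (7.63 ± 0.40 and 7.42 ± 0.28) and Pax2 above Pax3 with overlap in the Pax3 line (5.47 ± 0.43 and 5.30 ± 0.60). The order between Pax1 and Pax5 depends on the transcript used. With the transcript of the longest coding sequence, 1725 nt for Pax7 in place of 5854 nt, Pax7 was second in wild types of both lines, whereas the places of Pax1 and Pax5 held with every length tried, the merged exons included.

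**Figure D3:**
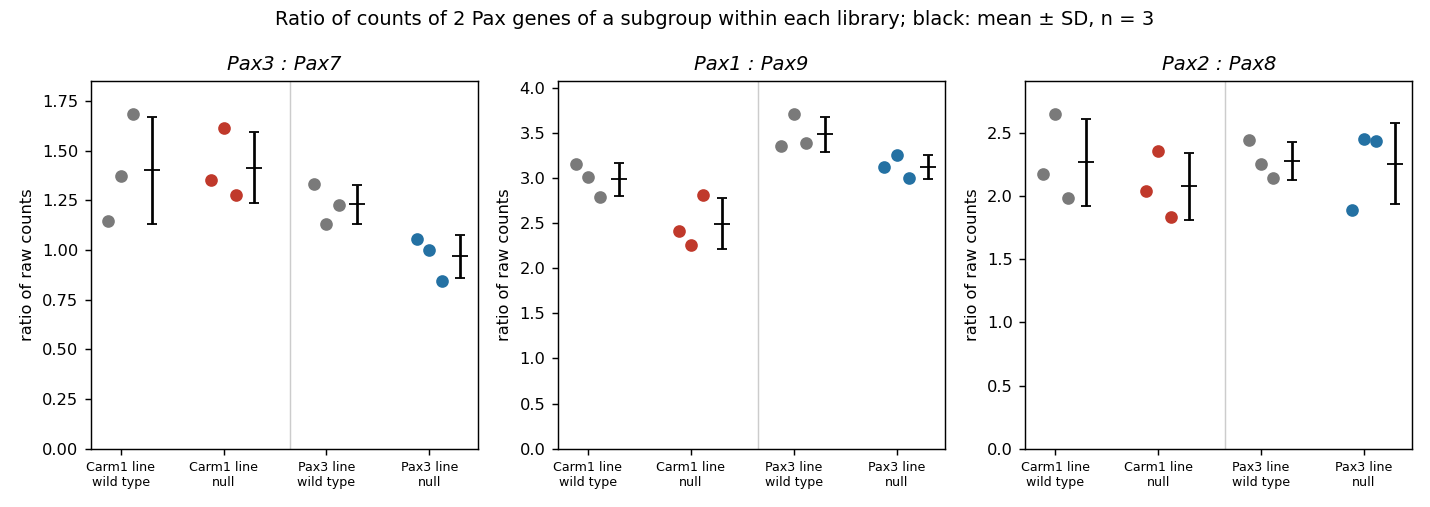
Ratio of raw counts of paralogous Pax genes in each library (points), with group mean and SD in black (n = 3); vertical axes start at 0. The Pax3 to Pax7 ratio lies between 0.845 and 1.05 in Pax3 null embryos, below the 1.13 to 1.33 of their wild types, and overlaps between the groups of the Carm1 line.

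Genes most like each called member were sought only among genes tested in both lines and called in the same comparison as the member. Likeness was the root mean square difference, over 12 libraries, of log2 CPM relative to the wild types of the same line. This is a description over shared libraries, and part of the likeness comes from choosing among called genes. For Pax3 they were Fndc3c1 (0.076), Ccdc14 (0.088) and Ednrb (0.091), the last an endothelin receptor of neural crest cells. These 3 genes were the nearest both among the 2068 other genes called in the Carm1 line and among the 3835 called in the Pax3 line that were tested in both. For Pax1 they were Mmp14 (0.033), a membrane metalloproteinase, Cmtm3 (0.035) and Gprasp1 (0.035). For Pax6 they were Hirip3 (0.051), the transcription factor Gata2 (0.061) and Peg12 (0.062), and for Pax7 they were Frmd4b (0.087), the neural transcription factor Pou3f4 (0.087) and Spata13 (0.089).

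Some members overlap other transcripts, and the strand setting of the counting was not stated, so reads of a pair on opposite strands may not be separated. The antisense transcript AI646519, which overlaps the start of Pax1, held 45 to 53 counts in Pax3 null libraries and 15 to 30 in the other 3 groups. Its log2 fold change in the Pax3 line was 1.20 (adjusted P = 0.0018 by edgeR). The transcript 5730488B01Rik, within Pax5 on the other strand, held 53 to 72 counts in Pax3 null libraries and 30 to 34 in their wild types (log2 fold change 0.74, adjusted P = 0.019), and that call was lost with DESeq2, with length and GC offsets, and without Pax3 wild-type replicate 3 or Pax3 null replicate 3. Pax6os1, antisense to Pax6, held 2 to 16 counts per library, and 1700039E22Rik, antisense to Pax2, held 8 to 21. Slc25a21, whose end overlaps that of Pax9, did not pass in either line (log2 fold changes -0.37 and 0.31).

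Genes reported to act after PAX3 in muscle and neural crest were counted in a list of 16, chosen with earlier results of these data known. In Pax3 null embryos 7 of 16 fell and 2 rose, where 10.5% of all genes fell and 14.0% rose, with a list median of -0.29 on the log2 scale. Sox10, a neural crest regulator, fell from 29.0 ± 2.8 to 15.6 ± 1.5 CPM (SD, n = 3, log2 fold change -0.89, adjusted P = 7.8e-08 by edgeR). Myf5, a muscle determination factor, had a log2 fold change of -0.75, and Fgfr4, a growth factor receptor of muscle progenitors, one of -0.70. Foxc2 and Neurog2 rose by 0.39 and 0.25 and lost their calls with length and GC offsets, and Neurog2 also without Pax3 wild-type replicate 1 or Pax3 null replicates 1 or 3. In Carm1 null embryos, where 7.83% of all genes fell and 5.49% rose, 1 of 15 tested fell and none rose. The gene that fell was Fgfr4 (-0.29, adjusted P = 0.031 by edgeR), and the list median was -0.094. The number that fell was 0 to 2 and the number that rose 0 to 2 under the 15 alternatives, and the call of Fgfr4 was lost with DESeq2, in one fit of all libraries, and without Carm1 null replicate 2, Carm1 null replicate 3 or Carm1 wild-type replicate 2. Sox10 was at 26.0 CPM in Carm1 null embryos and 25.2 CPM in wild types, and Myf5 at 2.96 and 3.25 CPM. All 6 skeletal muscle markers fell in Pax3 null embryos, with summed levels of 139 to 156 CPM against 268 to 323 CPM, and 4 of 6 fell in Carm1 null embryos, with 344 to 351 CPM against 465 to 536 CPM. Of the 6 neural crest glia markers, 3 fell and 1 rose in Pax3 null embryos, and 1 rose in Carm1 null embryos. The marker that rose was Fabp7 in both lines, which is also counted among the neural progenitor markers. Of the 6 melanoblast and pigmented retina markers, none of 4 tested in the Carm1 line and none of 5 tested in the Pax3 line passed. The part of these cell types in the Pax3 and Pax7 values was not tested.

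**Figure D4:**
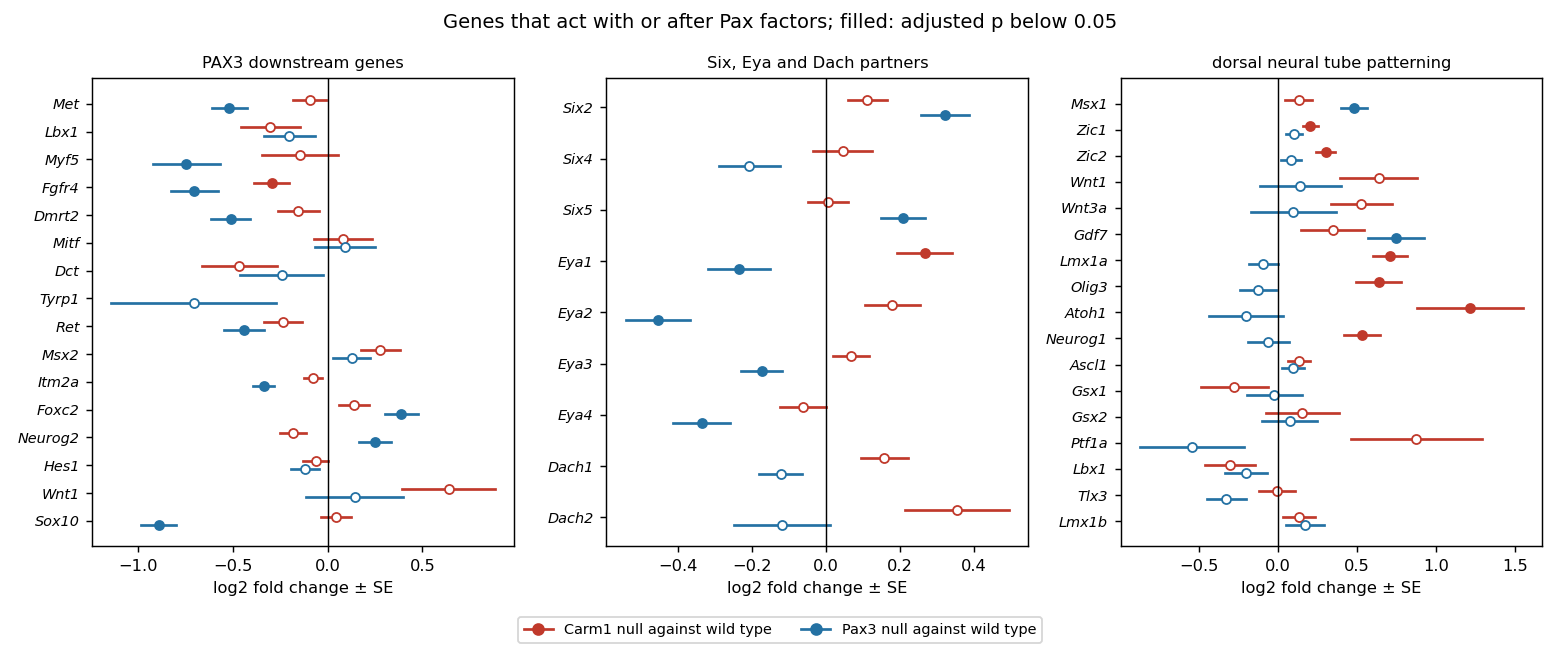
Log2 fold change with its standard error, null over wild type, of genes listed after or beside Pax factors, in the Carm1 line (red) and the Pax3 line (blue); filled points passed an adjusted P of 0.05. Of 16 PAX3 downstream genes, 7 fell and 2 rose in the Pax3 line. In the Carm1 line 1 of 15 tested fell and none rose. Of 17 dorsal neural tube genes, 6 rose in the Carm1 line and 2 in the Pax3 line, and none fell in either. Among 9 Eya, Dach and partner homeobox genes, 4 fell and 2 rose in the Pax3 line, and 1 rose in the Carm1 line. Over all genes, 10.5% fell and 14.0% rose in the Pax3 line, and 7.83% fell and 5.49% rose in the Carm1 line.

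Eya and Dach proteins and homeobox factors such as Six2, Six4 and Six5 form a regulatory network with Pax factors. Of 9 genes counted here, 4 fell in Pax3 null embryos, among them Eya2 (-0.45), Eya4 (-0.34) and Eya1 (-0.23). Six2 (0.32) and Six5 (0.21) rose. Over all genes, 10.5% fell and 14.0% rose in Pax3 null embryos, and 7.83% fell and 5.49% rose in Carm1 null embryos. The call of Eya1 was lost under 5 of 15 alternatives, length and GC offsets and leaving out Pax3 wild-type replicate 3 or any 1 of the 3 null embryos. With length and GC offsets 1 of the 9 fell (Eya2) and none rose, and without Pax3 null replicate 1 or without Pax3 null replicate 3 the number that fell was 2. The call of Six5 was also lost without Pax3 null replicate 2. In Carm1 null embryos Eya1 rose by 0.27 (adjusted P = 0.013 by edgeR), a call lost without Carm1 null replicate 3 (adjusted P = 0.065), and the other 8 did not pass. With no filter, length and GC offsets or without Carm1 wild-type replicate 2, up to 3 of the 9 rose. Among 13 tested cofactors of Pax proteins, Trim28, a corepressor, rose by 0.17 in Carm1 null embryos and Carm1 itself fell. Carm1 is the targeted gene, so its fall was set by the design and is no result about cofactors. The single rise lies near the share over all genes. The Trim28 call was lost without Carm1 null replicate 1, Carm1 null replicate 3 or Carm1 wild-type replicate 2. The number of cofactors that rose changed under 7 of 15 alternatives, to 5 with length and GC offsets, to 2 with RLE factors, with no filter and without Carm1 wild-type replicate 1 or 3, and to 0 without Carm1 null replicate 3 or Carm1 wild-type replicate 2. None of the 13 passed in Pax3 null embryos in edgeR, where 1 rose under 7 of 15 alternatives and 1 fell under 2.

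Of 17 genes that pattern the dorsal neural tube, where Pax3 and Pax7 are expressed, 6 rose and none fell in Carm1 null embryos, where 5.49% of all genes rose and 7.83% fell, with a list median of 0.30. Lmx1a, a roof plate factor, rose from 9.65 ± 1.27 to 15.9 ± 1.0 CPM (SD, n = 3, log2 fold change 0.71, adjusted P = 1.5e-05 by edgeR). Atoh1, which specifies dorsal interneurons, rose by 1.22 from 0.828 to 2.0 CPM and lost its call without any 1 of 3 libraries, Carm1 null replicates 1 and 2 and Carm1 wild-type replicate 1. Olig3 rose by 0.64, a call lost without Carm1 null replicate 1 (adjusted P = 0.060). Of the 17, 2 rose in Pax3 null embryos, where 14.0% of all genes rose and 10.5% fell. These were Gdf7 (0.75) and Msx1 (0.48), of which Gdf7 was not called with length and GC offsets. None of the 17 fell there by edgeR, but up to 2 did under 6 of 15 alternatives. All 6 neural progenitor markers rose in Carm1 null embryos, with summed levels of 963 to 1012 CPM against 712 to 755 CPM. In Pax3 null embryos 5 of 6 rose, with 798 to 896 CPM against 727 to 789 CPM. Of 6 neuron markers, 3 fell in Carm1 null embryos, and 2 fell and 1 rose in Pax3 null embryos. The part of neural tissue in the Pax3, Pax6 and Pax7 values was not tested.

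Of the genes linked to the other subgroups, the counts stand beside 5.49% of all genes higher and 7.83% lower in Carm1 null embryos, and 14.0% higher and 10.5% lower in Pax3 null embryos. Of 9 midbrain-hindbrain genes linked to Pax2, Pax5 and Pax8, 2 rose in Carm1 null embryos, the signal Fgf8 (0.99) and Otx2 (0.28). Fgf8 was at a low level there, 2.58 CPM in null embryos and 1.28 CPM in wild types. The call of Fgf8 was lost without Carm1 null replicate 1, and that of Otx2 was lost under 8 of 15 alternatives, DESeq2 included. In the other line 3 rose, Fgf8 (0.69), the homeobox gene En2 (0.67) and Gbx2 (0.35), of which En2 alone passed with length and GC offsets. The call of Fgf8 there was also lost with DESeq2 and without Pax3 wild-type replicate 1 or Pax3 null replicates 1 or 2, with values from 0.30 to 0.80, and that of Gbx2 without Pax3 wild-type replicate 1 or Pax3 null replicate 3. Of the nephric and thyroid genes, Sall1 rose (0.25) and Osr1 fell (-0.28) among 13 tested in Carm1 null embryos, while Wnt11 rose (0.45) and the receptor Ret fell (-0.44) among 14 tested in Pax3 null embryos. These single calls lie near or below the shares over all genes. Some genes stand in several lists, so counts of the lists are not independent. Ret, Foxc2 and Neurog2 are also among the genes after PAX3, and Msx1 is also a dorsal neural tube gene. Of 12 tested sclerotome and pharyngeal genes, Foxc1 (0.35) and Uncx (0.29) rose and Osr2 (-0.46) and Meox1 (-0.26) fell in Carm1 null embryos. DESeq2 called neither Uncx nor Meox1, Uncx was also lost without any 1 of 3 libraries and Meox1 without any 1 of 4, and Osr1 was lost without Carm1 null replicate 1 or Carm1 wild-type replicate 2. Of the 12, 5 rose in Pax3 null embryos and none fell, with Barx1 (0.53), Msx1 (0.48) and Foxc2 (0.39) changing most. With length and GC offsets 3 of the 12 rose, and Barx1 (0.16, adjusted P = 0.15 by edgeR) and Foxc2 were not called. Of 6 cartilage markers, 3 fell in Carm1 null embryos and 1 rose in Pax3 null embryos. Their summed levels were 896 to 917 CPM against 867 to 1066 CPM in the Carm1 line and 878 to 997 CPM against 720 to 890 CPM in the Pax3 line, and their part in the Pax1 and Pax9 values was not tested. Of 12 eye and forebrain genes linked to Pax6, none of 11 tested passed in Carm1 null embryos by edgeR, with up to 2 lower under 4 of 15 alternatives, whereas Neurog2 rose (0.25) and Eomes fell (-0.29) in Pax3 null embryos, the former lost under 4 and the latter under 9 of 15 alternatives.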

How the data were processed

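Whole-embryo RNA with poly(A) tails was sequenced as 150-nt paired reads. Per the labels and the submitters' processing notes, the authors aligned reads to mm10 with STAR and counted them with featureCounts, and the deposited values are raw counts per gene symbol. Tool versions, strand setting and treatment of multi-mapping reads are not given in the sources used here. Groups and replicate numbers came from the sample labels.

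Each line was fitted on its own with edgeR 4.0.16 (R 4.3.3), with TMM normalization, filterByExpr, robust quasi-likelihood tests and Benjamini-Hochberg adjustment over all genes tested (threshold 0.05). The difference between lines was a contrast in one fit of 12 libraries. Standard errors were derived from the F statistic. Ratios of counts were compared by exact two-sided permutation tests. Alternatives were RLE factors, upper-quartile normalization, DESeq2 1.42.0, no filter, a minimum of 10 counts, the replicate block and one fit of 12 libraries. Further alternatives were a term marking libraries with at least 100 Y-linked counts and leaving out each library. Offsets for transcript length and GC content (splines with 5 degrees of freedom) were also used. Count ratios, other transcript lengths and the alternatives applied to gene lists were added after the data had been seen. The lists of cell type markers were not run under the alternatives.

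Named were all members, up to 3 genes per direction and list by size of change, and overlapping genes. Also named were the 3 genes nearest in profile to each called member, among genes called in the same comparison. The members and lists were chosen with earlier results of these data known. A gene of these lists is not reported here and was left out of their counts. GENCODE M21 matched 21777 symbols as written and 1262 by another symbol, and 381 had no match.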

Additional observations from a re-analysis of the deposited data

Results flagged for a closer look

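The effect on Pax3 differed between the lines, by 0.82 on the log2 scale (Carm1 null effect minus Pax3 null effect, adjusted P = 2.9e-05 by edgeR). Pax3 rose in 3 of 3 Carm1 null libraries relative to every wild type of that line and fell in 3 of 3 Pax3 null libraries relative to every wild type of theirs. The effect on Pax7 also differed, by 0.45 (adjusted P = 0.013 by edgeR), with higher values in 3 of 3 Carm1 null libraries and slightly lower values, which did not pass the test, in 3 of 3 Pax3 null libraries.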

How the results depend on the processing

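The Pax3 change in each line, the Pax6 change in the Carm1 line and the Pax3 difference between lines kept direction and call under every alternative run. The number of called members in the Carm1 line ranged from 2 to 4 when single libraries were left out, the lowest without Carm1 null replicate 1, and was 3 or 4 under the other alternatives. In the Pax3 line 2 members were called, with Pax6 as the second, with no filter (adjusted P = 0.049), a minimum of 10 counts (0.033), the replicate block (0.044), one fit of all libraries (0.034) and length and GC offsets (0.0095). For the difference between lines the number ranged from 1 to 2 when single libraries were left out. Changes of sign occurred for uncalled members. Pax2 in the Pax3 line became -0.11 with length and GC offsets and ranged from -0.0046 to 0.11 when single libraries were left out. In the Carm1 line Pax8 ranged from -0.10 to 0.013 and Pax9 from -0.0018 to 0.11. The difference between lines for Pax5 became -0.000702 with the replicate block and -0.060 with length and GC offsets and ranged from -0.28 to 0.25, and that for Pax9 ranged from -0.11 to 0.0058, when single libraries were left out. The causes were not tested. Deviations of libraries with the same number correlated between -0.053 and -0.0016 in the Carm1 line and between -0.079 and 0.25 in the Pax3 line. Only replicate 3 of the Pax3 line had its own number as best partner. With 3 libraries per group these correlations cannot settle whether replicate numbers pair the samples. The replicate block left 4 called members in the Carm1 line and 2 between lines. Pax5, with the fewest counts, had the widest intervals.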
